A study of Homo sapiens with 9 samples.

Results

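The genes described here are 9 regulators and effectors of the epithelial-mesenchymal transition (EMT): SNAI1, SNAI2, ZEB1, ZEB2, TWIST1, TWIST2, VIM, CDH2 and FN1. They were taken by gene symbol from the deposited table, which gave 1 feature for each symbol, so that 9 of 46846 features (25854 with a symbol) are covered by a rule that uses names and no measured value. The study sequenced poly-A RNA of MDA-MB-231, a line derived from triple-negative breast cancer, to follow 2 compounds that act on splicing. The pladienolide B group (10 nM, 6 h), the indisulam group (3.3 µM, 12 h) and the DMSO group (solvent alone, labelled 12 h) had 3 libraries each. The labels name no engineered allele, and all groups are of this 1 line. Pladienolide B binds the SF3b complex, which recognises the branch point of introns, and indisulam is a molecular glue that marks RBM39, a splicing factor, for degradation through DCAF15. Since the pladienolide B libraries differ from the DMSO libraries in time as well as in drug, the effects of drug and time cannot be told apart.

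EMT is a change of state in which epithelial cells loosen their junctions and take on migratory, fibroblast-like features. It is driven by 3 families of transcription factors, the SNAIL zinc finger proteins (SNAI1 and SNAI2), the ZEB zinc finger and homeodomain proteins (ZEB1 and ZEB2) and the TWIST basic helix-loop-helix proteins (TWIST1 and TWIST2), which repress epithelial genes such as CDH1 at E-box elements. Vimentin (VIM, an intermediate filament protein), N-cadherin (CDH2, an adhesion receptor) and fibronectin (FN1, an extracellular matrix glycoprotein) are the classical products of mesenchymal cells. MDA-MB-231 is known as a line of mesenchymal-like character, and the ZEB factors are known to be held down in epithelial cells by miRNAs of the miR-200 family, which they in turn repress.

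The mature miRNAs of the miR-200 family are shown because ZEB1 and ZEB2 are their classical targets and because the letters that pair with their seeds can be counted in the transcripts measured here. The family has 2 seed groups, given by bases 2 to 8 in capitals (RefSeq, GRCh38.p14), and the seeds differ by 1 letter.
hsa-miR-200b-3p: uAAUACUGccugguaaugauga
hsa-miR-200c-3p: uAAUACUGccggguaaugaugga
hsa-miR-429: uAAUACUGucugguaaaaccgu
hsa-miR-200a-3p: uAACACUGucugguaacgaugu
hsa-miR-141-3p: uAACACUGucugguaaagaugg

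In the longest 3′ UTR of each gene in GENCODE 29 (sense strand only), ZEB1 held 6 copies of CAGTATT, the reverse complement of the first seed, and 3 copies of CAGTGTT, that of the second. ZEB2 held 5 copies of CAGTATT and 4 of CAGTGTT. Over 19552 genes, 15.6% held at least 1 CAGTATT and 17.8% at least 1 CAGTGTT, with no allowance for the length of the UTR, which was 2552 bases in ZEB1 and 5373 bases in ZEB2. FN1 held 2 copies of CAGTATT and SNAI2 held 1, and the other members held neither word. The miRNAs themselves were not analysed here. MIR200CHG, the host transcript of miR-200c and miR-141, was listed at 0 in all 9 libraries.

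Promoter windows (250 bases before to 50 bases after each gene start, RefSeq, GRCh38.p14) are shown for ZEB1, FN1 and VIM. These genes were called higher with pladienolide B in the values as deposited, as was SNAI2. At the same total per library ZEB1 and VIM changed sign. Windows of SNAI1, SNAI2 and TWIST1 are not reported here. The ZEB1 window at chr10:31318966-31319265 (plus strand) is 1 of 7 windows of this gene and shares 220 bases with a window of its antisense transcript ZEB1-AS1. The capitals mark the E-box CACCTG on either strand, the element that the SNAIL and ZEB factors bind.
ZEB1: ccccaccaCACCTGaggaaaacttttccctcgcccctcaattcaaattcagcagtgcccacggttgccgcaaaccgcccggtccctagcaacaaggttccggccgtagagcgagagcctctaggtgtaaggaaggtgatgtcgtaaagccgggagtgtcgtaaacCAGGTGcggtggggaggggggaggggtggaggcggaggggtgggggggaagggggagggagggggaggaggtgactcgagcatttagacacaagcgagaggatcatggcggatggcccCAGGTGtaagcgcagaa
In the FN1 window at chr2:215436019-215436318 (minus strand) the capitals mark the cyclic AMP response element TGACGTCA.
FN1: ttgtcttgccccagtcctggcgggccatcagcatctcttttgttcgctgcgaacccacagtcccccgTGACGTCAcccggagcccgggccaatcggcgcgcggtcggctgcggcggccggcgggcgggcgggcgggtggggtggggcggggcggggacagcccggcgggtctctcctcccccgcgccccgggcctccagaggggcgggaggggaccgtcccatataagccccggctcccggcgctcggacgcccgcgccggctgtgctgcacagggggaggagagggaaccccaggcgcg
In the VIM window at chr10:17227991-17228290 (plus strand) the capitals mark the GC box GGGCGG on either strand.
VIM: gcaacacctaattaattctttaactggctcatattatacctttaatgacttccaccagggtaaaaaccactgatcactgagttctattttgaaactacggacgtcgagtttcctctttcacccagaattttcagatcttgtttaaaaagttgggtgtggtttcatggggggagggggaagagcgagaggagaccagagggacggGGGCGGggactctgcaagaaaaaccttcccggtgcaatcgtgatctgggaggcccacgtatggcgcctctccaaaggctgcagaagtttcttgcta

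The ZEB1 window shown held 3 copies of CACCTG, the most of any ZEB1 window. The word was found on either strand in 20.6% of 35114 promoter windows. The ZEB1 window at the deposited gene start, chr10:31318167-31318466, held 1 copy. Of the 7 ZEB1 windows 2 held CACCTG, as did 1 of 2 ZEB1-AS1 windows, while the windows of ZEB2, TWIST2, VIM, CDH2 and FN1 did not. The ZEB1-AS1 copies lie in the bases shared with the ZEB1 window shown, so they are not further copies. FN1 held 1 copy of TGACGTCA, at -183 from the gene start, a word found in 1.85% of the windows. FN1 also held 6 copies of GGGCGG, some of them overlapping, against 1 in VIM, and 45.0% of windows held this word. A match describes these letters and shows no binding.

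The libraries held between 59312100 and 83910831 reads, and the deposited values, called normalised read counts below, are reads after division by a size factor. Their totals were 38.8% higher with pladienolide B and 3.82% higher with indisulam than with DMSO, so another scaling shifts the values of the pladienolide B libraries. When every library was set to the same total, the median log2 fold change of all genes tested, pladienolide B against DMSO, moved by -0.47. The 9 markers of a mesenchymal-like breast line (CD44, AXL, CAV1, CAV2, MSN, NT5E, FOSL1, EGFR and VIM) all passed the filter on low values. Of 13 breast epithelial markers 8 passed it too, and their list, led by the keratins KRT8 and KRT18, summed to between 149848 and 162488 in pladienolide B libraries, 105055 and 109703 in indisulam libraries and 107505.5 and 117429.5 in DMSO libraries. With pladienolide B against DMSO 5 of these 8 were higher and 1 lower, against 34.3% and 35.5% of all genes tested. GATA3 rose by 1.96 and EPCAM by 0.78 on the log2 scale, while ELF3 fell by 1.26. At the same total per library 3 of the 8 were higher and 4 lower, against 2733 and 9086 of 16846 genes tested. Of the 9 mesenchymal-like markers 7 were higher and 2 (EGFR and CAV2) lower, against 34.3% and 35.5% of all genes tested. These became 4 and 3 at the same total per library and 1 and 4 under quantile normalisation. The hormone receptor gene ESR1 averaged 0 normalised read counts with pladienolide B, 0.676 with indisulam and 1.23 with DMSO. It did not pass the filter, and these means are too low to compare the groups. The summed level of 6 leukocyte markers ranged from 11620.0 to 15053 in the pladienolide B libraries, 7472 to 7989 in the indisulam libraries and 6691 to 7679 in the DMSO libraries. CD68, which many non-immune cells also express, made up most of these sums, and the part of these marker lists in the results below was not tested. Whether the replicas named in the labels were separate cultures is not stated there, so each p-value measures the spread between these libraries, which may be technical.

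Of the 9 members, 7 passed the filter on low values (a mean of at least 10 normalised read counts over the 9 libraries). TWIST1 and TWIST2 were listed at 0 in all 9 libraries and were not tested. If these zeros are read counts, a count of 0 allows up to 3 reads, which correspond to 2.48 to 3.87 normalised read counts depending on the library, for counting error only. SNAI1, the least counted of the 7, rested on 34 to 71 reads per library.

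The members lie on 6 chromosomes. In the deposited table's hg38 coordinates SNAI1 spans chr20:49982980-49988886, SNAI2 chr8:48917598-48922362, ZEB1 chr10:31318417-31529804 and ZEB2 chr2:144384081-144520349. TWIST1 spans chr7:19113047-19117672, TWIST2 chr2:238848032-238910543, VIM chr10:17228241-17237593, CDH2 chr18:27950966-28177444 and FN1 chr2:215360865-215436068. By the longest transcript in GENCODE 29, SNAI1 and SNAI2 have 3 exons each, TWIST1 and TWIST2 have 2 each, ZEB1 and VIM have 9 each, ZEB2 has 10, CDH2 has 16 and FN1 has 46.

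To set the members beside each other, normalised read counts were divided by the length of all annotated exons of the gene (GENCODE 29). On this scale VIM had the highest level, with 94835 ± 8244 per kilobase in pladienolide B libraries, 63053 ± 2654 in indisulam libraries and 68411 ± 2482 in DMSO libraries (SD, n = 3 each). FN1 came next, at 12476 ± 3416 per kilobase with pladienolide B, 7850 ± 1620 with indisulam and 6559 ± 1318 with DMSO. No library of any gene below them reached the lowest FN1 library in its group.

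ZEB1 and SNAI2 followed, and their order per kilobase differed between the groups. SNAI2 averaged 1778 ± 114 per kilobase with pladienolide B, 639 ± 28.2 with indisulam and 542 ± 20.8 with DMSO (SD, n = 3 each). ZEB1 averaged 1041 ± 196 per kilobase with pladienolide B, 816 ± 44.9 with indisulam and 749 ± 37.7 with DMSO. In the indisulam and DMSO libraries every ZEB1 value lay above every SNAI2 value, and in the pladienolide B libraries every SNAI2 value lay above every ZEB1 value.

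The remaining members were low. CDH2 averaged 23.7 ± 3.2 per kilobase with pladienolide B, 47.1 ± 1.95 with indisulam and 38.2 ± 9.97 with DMSO. SNAI1 averaged 44.4 ± 8.66 per kilobase with pladienolide B, 30.1 ± 8.85 with indisulam and 28.2 ± 7.17 with DMSO. ZEB2 averaged 19.7 ± 1.6 with pladienolide B, 22.1 ± 0.586 with indisulam and 18.7 ± 1.34 with DMSO (SD, n = 3 each). The ranges of SNAI1 and CDH2 overlapped in the DMSO libraries, those of SNAI1 and ZEB2 overlapped in the indisulam libraries, and those of CDH2 and ZEB2 overlapped in the pladienolide B libraries, so these neighbours do not differ beyond their spread there. The plot of levels per kilobase shows the wide gap between the effectors VIM and FN1 and the 3 lowest members. In RNA from whole cultures, fewer cells of a type and less RNA per cell cannot be told apart.

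**Figure D1:**
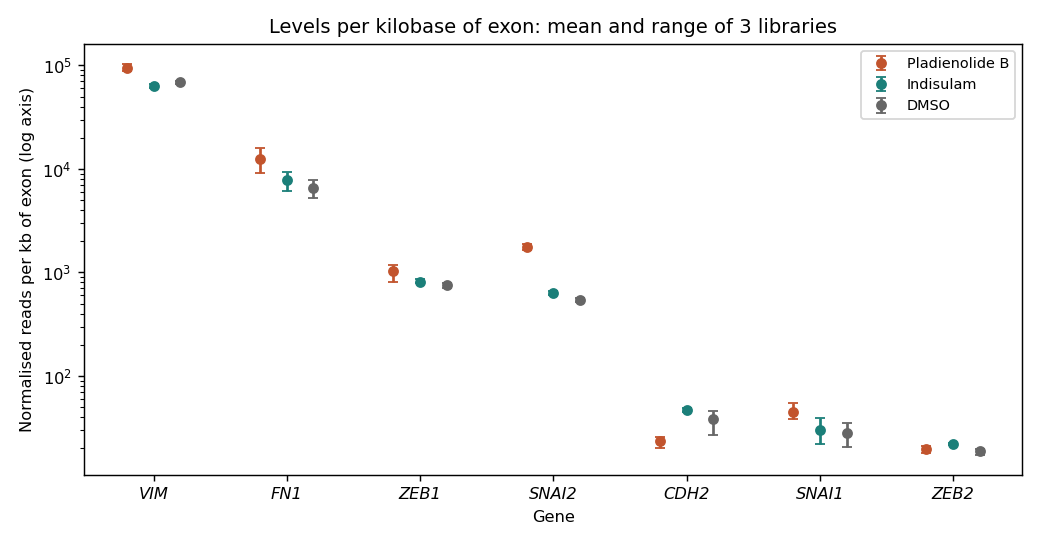
Normalised read counts per kilobase of annotated exon (log axis) for the 7 members above the filter, with points for the mean and bars for the lowest and highest of 3 libraries, in pladienolide B, indisulam and DMSO. VIM and FN1 lie far above the rest, and SNAI2 lies above ZEB1 in the pladienolide B libraries and below it in the other groups.

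Pladienolide B against DMSO asks how the EMT genes stood after 6 h of the SF3b inhibitor. SNAI2, ZEB1, VIM and FN1 rose and CDH2 fell in the values as deposited, while ZEB1 and VIM changed sign at the same total per library and VIM under quantile normalisation. The change of SNAI2 was the largest of the 7. SNAI1 was higher in each pladienolide B library but missed the threshold, and ZEB2 gave no call. By limma on log2(value + 1) with Benjamini-Hochberg adjustment at 0.05 over all genes tested, 5 of 7 members were called, against 69.8% of 16846 genes tested. They were 4 higher, against 34.3% of all genes, and 1 lower, against 35.5% of all genes. The median log2 fold change was 0.47 over the 7 members and -0.01 over all genes tested. At the same total per library all genes called were 2733 higher and 9086 lower in place of 5776 higher and 5976 lower.

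SNAI2, the SNAIL family repressor also called Slug, had 4595, 4313 and 4041 normalised read counts in pladienolide B libraries, against 1326, 1361 and 1261 in DMSO libraries. The lowest pladienolide B library stood far above the highest DMSO library, and the libraries of each group lay close together. The log2 fold change was 1.71 ± 0.07 (SE), with a limma adjusted p of 2.25e-10. This rise was called under all 21 alternatives, with log2 values between 1.24 and 1.76.

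SNAI1, the repressor also called Snail, had 68.2, 91.6 and 64.7 normalised read counts in pladienolide B libraries, against 49.4, 58.6 and 34.6 in DMSO libraries. The groups did not overlap, though the gap between them was small beside the spread within each. For SNAI1 the log2 fold change was 0.66 ± 0.29 (SE, 95% interval 0.03 to 1.28) with a limma adjusted p of 0.057. It passed the threshold under quantile normalisation and without DMSO replicate 2. At the same total per library the log2 fold change was 0.19 (limma adjusted p = 0.559).

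ZEB1 had 7228, 5259 and 7604 normalised read counts in pladienolide B libraries, against 4807, 4581 and 5065 in DMSO libraries. The pladienolide B library numbered 2 lay just above the highest DMSO library and well below the other two. The log2 fold change was 0.46 ± 0.11 (SE, limma adjusted p = 0.002), and at the same total per library it was -0.02 with no call. Relative to the median of all genes it was 0.47 as deposited, 0.46 at the same total and 0.26 under quantile normalisation. A factor per library moves a gene and the median alike, so the first 2 values are close by construction and do not bear on the lost call.

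ZEB2, its paralog, had 284, 241 and 265 normalised read counts in pladienolide B libraries, against 261, 259.9 and 229 in DMSO libraries. These groups overlapped. For ZEB2 the log2 fold change was 0.08 (95% interval -0.19 to 0.34, limma adjusted p = 0.607). The direction depended on the scaling, with a called -0.40 at the same total per library and a called 0.40 under quantile normalisation.

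VIM had 171885, 194494 and 165076 normalised read counts in pladienolide B libraries, against 127369, 132625 and 123380.5 in DMSO libraries. All pladienolide B libraries were above all DMSO libraries. VIM had a log2 fold change of 0.47 ± 0.06 (SE, limma adjusted p = 1.75e-05), but it was -0.00 at the same total per library and a called -0.24 under quantile normalisation. As a share of all normalised reads VIM was the same in both groups, 0.209% ± 0.0117 with pladienolide B and 0.209% ± 0.00564 with DMSO (SD, n = 3 each).

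FN1 had 113476, 144537 and 82403 normalised read counts in pladienolide B libraries, against 60604, 71136 and 47211 in DMSO libraries. The lowest pladienolide B library was above the highest DMSO library. The log2 fold change was 0.91 ± 0.19 (SE, limma adjusted p = 0.000792). It was no longer called at the same total per library (0.44) or under quantile normalisation (0.13), with the same direction in both.

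CDH2 had 113, 113 and 88.8 normalised read counts in pladienolide B libraries, against 186, 119.7 and 204 in DMSO libraries. The DMSO library numbered 2 stood far below the other DMSO libraries and close to the pladienolide B libraries. CDH2 had a log2 fold change of -0.66 ± 0.20 (SE, limma adjusted p = 0.01). The call was lost without DMSO replicate 3 and under quantile normalisation, where the adjusted p reached 0.0654 at most, and the direction held under all 21 alternatives.

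**Figure D2:**
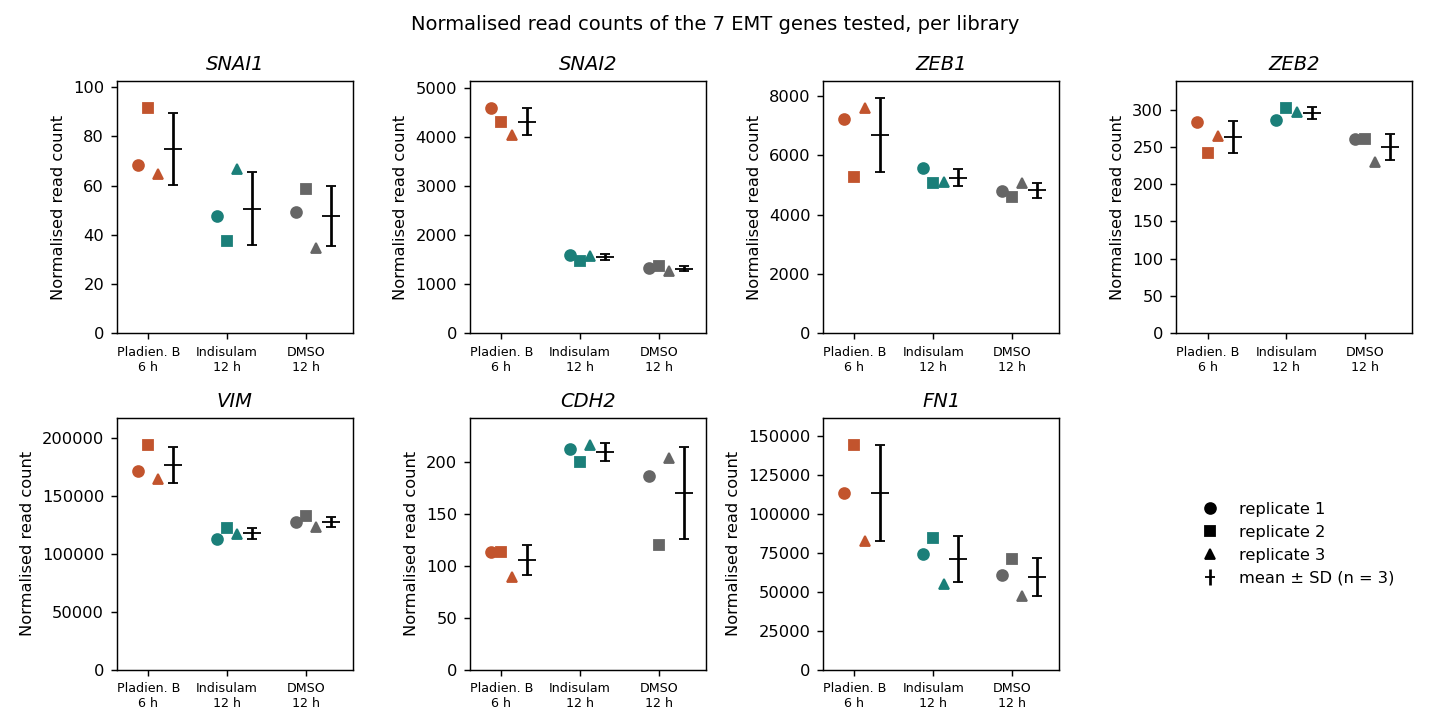
Normalised read counts (linear axes from 0) of the 7 members above the filter in each of 9 libraries, by group, with markers for the replicate number and bars for the mean ± SD (n = 3). SNAI2 is separated by the widest margin, at 4041 or more with pladienolide B and 1361 or less with DMSO, and CDH2 is lowest with pladienolide B.

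**Figure D3:**
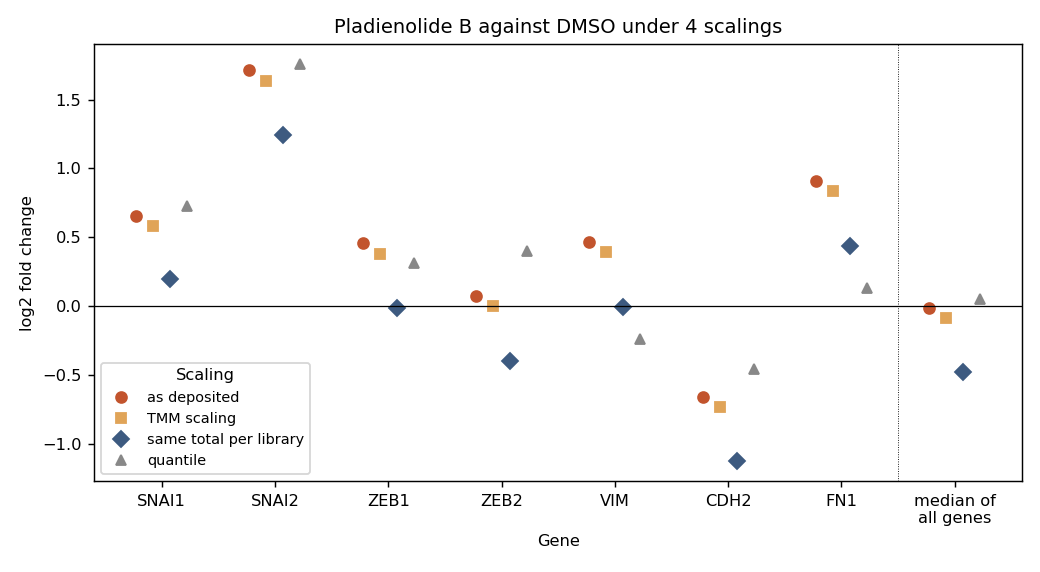
Log2 fold change of each member, pladienolide B against DMSO, with the deposited scaling, TMM scaling, quantile normalisation and the same total per library, beside the median of all genes tested. SNAI2 stays above 1.2 and CDH2 below -0.4 under each scaling, while ZEB1, ZEB2 and VIM change sign under at least 1 of them.

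Indisulam against DMSO, both at 12 h, showed small differences for these genes. SNAI2 rose by less than 1.2-fold in the means, no member was called lower, and the interval of each of the other 6 members included 0 in the fit without a block. With the replicate number as a block, FN1 was also called higher (limma adjusted p = 0.000464) and VIM lower (adjusted p = 0.0368). At the same total per library VIM was called lower (adjusted p = 0.0169) and SNAI2 was not called (adjusted p = 0.0779). By limma with Benjamini-Hochberg adjustment, 1 of 7 members was called, against 26.9% of 16846 genes tested. It was higher, against 14.5% of all genes, and 0 members were lower, against 12.4% of all genes. All genes called were 2437 higher and 2095 lower as deposited, 1714 and 2544 at the same total per library and 1832 and 2441 with TMM scaling. The median log2 fold change was 0.24 over the 7 members and 0.05 over all genes tested. At an unadjusted p under 0.05, SNAI2 was likewise the single member to pass.

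SNAI2 had 1604, 1474 and 1577 normalised read counts in indisulam libraries, against 1326, 1361 and 1261 in DMSO libraries. The groups did not overlap. The log2 fold change was 0.24 ± 0.07 (SE, 95% interval 0.08 to 0.39, limma adjusted p = 0.0273). The call was lost under 8 of 21 alternatives, among them TMM scaling, edgeR on the recovered reads and leaving out replicate 1 or 3 of either group, and the adjusted p ranged from 0.00786 to 0.102.

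The other transcription factors gave no call. SNAI1 had 47.6, 37.5 and 66.9 normalised read counts in indisulam libraries, against 49.4, 58.6 and 34.6 in DMSO libraries, and the groups overlapped widely. ZEB1 had 5581, 5062 and 5102 in indisulam libraries, against 4807, 4581 and 5065 in DMSO libraries, with 1 indisulam library below the highest DMSO library. ZEB2 had 287, 302 and 297 in indisulam libraries, against 261, 259.9 and 229 in DMSO libraries, so all indisulam libraries were higher. For ZEB2 the log2 fold change was 0.24 (95% interval -0.03 to 0.51, limma adjusted p = 0.171), and for ZEB1 it was 0.12 (-0.11 to 0.36, adjusted p = 0.445). The interval for SNAI1 was wide, -0.54 to 0.71, around a log2 fold change of 0.08 (limma adjusted p = 0.865).

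Among the effectors, FN1 had 74502, 84321 and 55352 normalised read counts in indisulam libraries, against 60604, 71136 and 47211 in DMSO libraries. The groups overlapped, yet within each replicate number the indisulam library was the higher, by a ratio between 1.17 and 1.23. For FN1 the log2 fold change was 0.26 ± 0.19 (SE, limma adjusted p = 0.356) without a block and had an SE of 0.045 with the replicate block. The same-number ratios of pladienolide B to DMSO lay between 1.75 and 2.03.

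VIM had 113029, 122921 and 117400.1 normalised read counts in indisulam libraries, against 127369, 132625 and 123380.5 in DMSO libraries. All indisulam libraries were below all DMSO libraries, by a small margin. The log2 fold change was -0.12 ± 0.06 (SE, limma adjusted p = 0.198), and it was called with the replicate block and at the same total per library. With the block 3 of 7 members were called in place of 1, while the share of all genes called was 37.3% in place of 26.9%. CDH2 had 213, 199.7 and 216 in indisulam libraries, against 186, 119.7 and 204 in DMSO libraries, a log2 fold change of 0.34 (95% interval -0.10 to 0.77, limma adjusted p = 0.243).

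**Figure D4:**
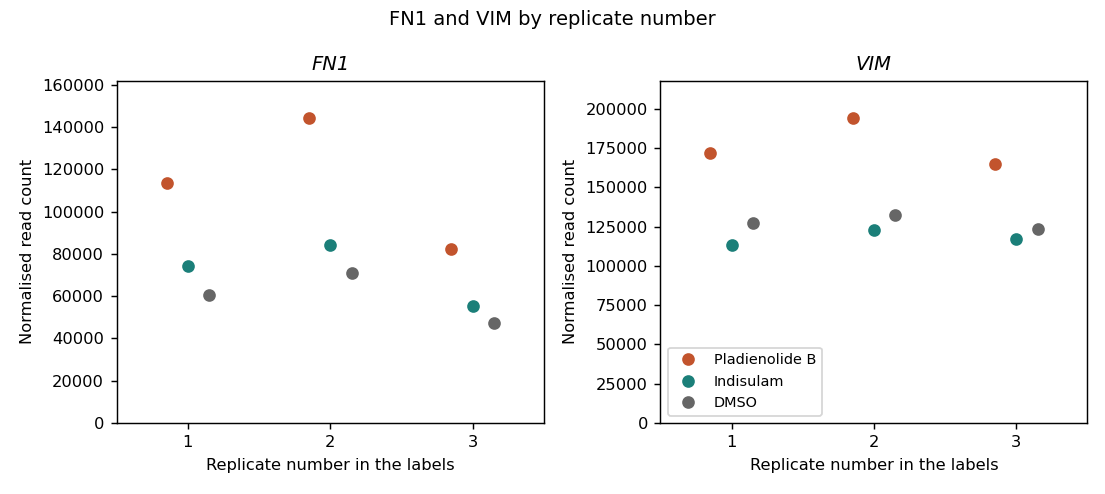
Normalised read counts of FN1 and VIM against the replicate number in the labels, with a point for each of 9 libraries coloured by group. FN1 is highest in the libraries numbered 2 and lowest in those numbered 3 in all 3 groups, and the order of the groups within each number is the same.

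Pladienolide B against indisulam sets the drugs side by side at different doses and times, 10 nM for 6 h against 3.3 µM for 12 h, so dose, time and drug cannot be told apart. SNAI2, ZEB1, VIM and FN1 were higher with pladienolide B and CDH2 was lower in the values as deposited, while ZEB1 changed sign at the same total per library and VIM and FN1 under quantile normalisation. By limma with Benjamini-Hochberg adjustment 5 of 7 members were called, against 70.3% of genes tested, 4 of them higher, against 34.7%, and 1 lower, against 35.6%. The median was 0.58 over the members and 0.01 over all genes tested. At the same total per library all genes called were 3014 higher and 8497 lower in place of 5842 higher and 5997 lower. This comparison and the preceding ones share their libraries, so its calls are no further support for them.

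SNAI2 averaged 4316 ± 277 normalised read counts with pladienolide B and 1552 ± 68.5 with indisulam (SD, n = 3 each), with a log2 fold change of 1.47 ± 0.07 (SE) and a limma adjusted p of 8.73e-10. CDH2 averaged 105 ± 14.2 with pladienolide B and 209.5 ± 8.69 with indisulam, with a log2 fold change of -0.995 ± 0.202 and a limma adjusted p of 0.000558. Both were called under all 21 alternatives, and neither gene's groups overlapped. VIM was higher by 0.59 on the log2 scale (limma adjusted p = 1.95e-06), with a called 0.17 at the same total per library and a called -0.14 under quantile normalisation. FN1 was higher by 0.65 (adjusted p = 0.00796) and ZEB1 by 0.34 (adjusted p = 0.0144). The FN1 call was lost at the same total (0.23), under quantile normalisation (-0.05) and with no trend. The ZEB1 call was lost at the same total (-0.08), under quantile normalisation (0.21), with no trend and without pladienolide B replicate 1 (0.27) or 3 (0.23). SNAI1 (0.58, 95% interval -0.05 to 1.20, adjusted p = 0.0914) and ZEB2 (-0.17, -0.43 to 0.10, adjusted p = 0.245) gave no call in limma as deposited. ZEB2 was called at the same total per library (-0.58), and SNAI1 under quantile normalisation (0.70) and without indisulam replicate 3 (0.79). SNAI1 stood at 0.16 at the same total per library.

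**Figure D5:**
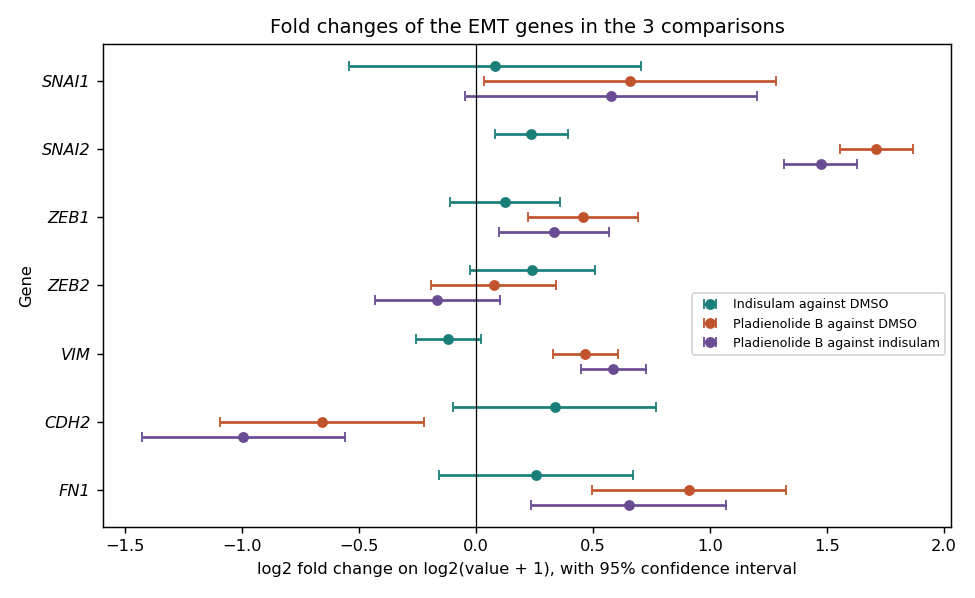
Log2 fold changes of the 7 members on log2(value + 1), with 95% confidence intervals from limma, for indisulam against DMSO, pladienolide B against DMSO and pladienolide B against indisulam. SNAI2 lies at 1.71 for pladienolide B against DMSO and at 0.24 for indisulam against DMSO, and CDH2 is the single member with intervals below 0, in both comparisons of pladienolide B and not for indisulam against DMSO.

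Named antisense transcripts overlap ZEB1, VIM and ZEB2. ZEB1-AS1, which shares 2031 bases with ZEB1, had 913, 735 and 772 normalised read counts in pladienolide B libraries, 660.4, 587 and 651 in indisulam libraries and 425, 396 and 332 in DMSO libraries. The groups were fully separated. Its log2 fold change against DMSO was 1.07 ± 0.12 (SE, limma adjusted p = 2.34e-06) for pladienolide B and 0.72 ± 0.12 (adjusted p = 0.000685) for indisulam, which are larger values than those of ZEB1. VIM-AS1, which shares 1745 bases with VIM, had 296, 227 and 198 in pladienolide B libraries, 426, 498 and 493 in indisulam libraries and 475, 449 and 386 in DMSO libraries. It fell with pladienolide B (log2 fold change -0.87 ± 0.15, limma adjusted p = 0.000145), in the direction opposite to VIM as deposited, and gave no call with indisulam (0.12, adjusted p = 0.62). The library kit keeps strand, but the strand setting of the counting is not given in the sources used here, so reads of a gene and its antisense partner cannot be told apart. ZEB2-AS1, which shares 736 bases with ZEB2, was near 0.

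The drugs act on splicing, and the members differ in exon number, so their fold changes were set beside genes of like exon number. With pladienolide B against DMSO the median log2 fold change was 0.66 over 278 genes of 1 exon, 0.15 over 1360 genes of 2 to 3 exons, 0.07 over 4848 genes of 4 to 9 exons and -0.27 over 5794 genes of 10 or more exons. SNAI2, at 1.71, lay above the upper quartile of its class (0.68), and SNAI1, at 0.66, lay just under it. ZEB1 and VIM lay between the median and the upper quartile of theirs (0.58). FN1, with 46 exons and a log2 fold change of 0.91, lay above the upper quartile of the class with the most exons (0.27). In the same class CDH2 lay between the lower quartile (-0.91) and the median, and ZEB2 (0.08) between the median and the upper quartile. With indisulam against DMSO the class medians were 0.22, 0.10, 0.07 and -0.05. SNAI2 (0.24) lay just under the upper quartile of its class (0.25). The members with 10 or more exons, FN1 (0.26), CDH2 (0.34) and ZEB2 (0.24), all lay above that of theirs (0.14). None of them was called without the replicate block.

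For each member the genes of nearest pattern were taken by the smallest root mean square difference of log2(value + 1), centred on each gene's mean, over the 9 libraries, among 11527 genes with a symbol and a mean of at least 100. SNAI2 was nearest to RNF168 (0.098) and TTC30A (0.103), and ZEB1 to SEPTIN7 (0.058) and ZNF146 (0.067). ZEB2 was nearest to PTS (0.061) and UGP2 (0.062), and VIM to RABL6 (0.03) and PIGG (0.038). FN1 was nearest to CST4 (0.088) and ITIH4 (0.097), CDH2 to MINDY2 (0.154) and ZNF23 (0.163), and SNAI1 to ALKBH2 (0.201) and ICAM3 (0.204). No member was among the 2 genes nearest to another member. So few were kept of so many compared that this was likely beforehand, and SNAI1 (mean 57.7) could not be listed. It does not show whether the members moved alike.

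Other transcription factors of EMT were read as a list of 20 genes, of which 15 were tested. With pladienolide B against DMSO 7 were higher and 5 lower, against 34.3% and 35.5% of all genes tested, with a median of 0.02. At the same total per library 5 were higher and 7 lower, against 2733 and 9086 of 16846 genes tested. FOSL1, a subunit of AP-1, averaged 177063 ± 8712 normalised read counts with pladienolide B and 64581 ± 3422 with DMSO (SD, n = 3 each), a log2 fold change of 1.46 (limma adjusted p = 9.81e-11). SOX9, which acts with SNAI2 in mammary cells, rose by 1.20. HMGA2, a chromatin protein that induces SNAI1, averaged 4051 ± 122 with pladienolide B and 8120 ± 599 with DMSO, and KLF8, a repressor of CDH1, fell by 2.20 at low levels. With indisulam 3 were higher and 2 lower, against 14.5% and 12.4% of all genes tested, with a median of 0.08. SOX9 (0.37) and ETS1 (0.25) were the highest of these, and HMGA2 (-0.37) and TCF3 (-0.23), which encodes the E-box protein E47, the lowest.

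Cofactors and turnover factors of the SNAIL, ZEB and TWIST proteins numbered 28, of which 27 were tested. With pladienolide B 8 were higher and 13 lower, against 34.3% and 35.5% of all genes tested, with a median of -0.12. At the same total per library 2 were higher and 21 lower, against 2733 and 9086 of 16846 genes tested. HDAC1, a deacetylase recruited by SNAI1, rose by 0.71, and LOXL2, which acts on SNAI1 protein, by 0.68. BTRC, the substrate receptor of the ubiquitin ligase that degrades SNAI1, averaged 257 ± 9.9 with pladienolide B and 1301 ± 66.3 with DMSO (log2 fold change -2.34, limma adjusted p = 8.54e-11). EZH2, the methyltransferase of the Polycomb complex, fell by 1.62. With indisulam 3 were higher and 7 lower, against 14.5% and 12.4% of all genes tested, with a median of -0.05. At the same total per library 1 was higher and 10 lower, against 1714 and 2544 of 16846 genes tested. GSK3B, the kinase that marks SNAI1 for degradation, rose by 0.33 and COPS2, which binds SNAI1, by 0.32, while LOXL3 averaged 75.2 ± 1.67 with indisulam and 154 ± 16.7 with DMSO (log2 fold change -1.02, limma adjusted p = 0.00272) and FBXL5 fell by 0.27.

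Epithelial genes that the EMT repressors act on numbered 33, of which 28 were tested. With pladienolide B 8 were higher and 8 lower, against 34.3% and 35.5% of all genes tested, with a median of -0.01. At the same total per library 3 were higher and 15 lower, against 2733 and 9086 of 16846 genes tested. CDH1, the classical target, averaged 105 ± 10.9 normalised read counts with pladienolide B, 70.3 ± 20.4 with indisulam and 70.6 ± 11.9 with DMSO. These are values as deposited, whose totals were 38.8% higher with pladienolide B than with DMSO, and no test of CDH1 is given here. CDH3 and SPINT1, encoding P-cadherin and a protease inhibitor, rose by 0.93 and 0.83. GRHL1, an epithelial transcription factor, fell by 2.23, and ESRP2, an epithelial splicing regulator, averaged 306 ± 18.8 with pladienolide B and 963 ± 59.3 with DMSO (log2 fold change -1.65, limma adjusted p = 9.33e-09). With indisulam 1 was higher and 3 lower, against 14.5% and 12.4% of all genes tested, with a median of -0.04 over the list. The junction genes CGN and PKP3 fell by 1.28 and 0.56.

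Mesenchymal effector genes other than the members numbered 37, of which 33 were tested. With pladienolide B 23 were higher and 3 lower, against 34.3% and 35.5% of all genes tested, with a median of 0.63. At the same total per library 13 were higher and 8 lower, against 2733 and 9086 of 16846 genes tested, with a median of 0.16. Under quantile normalisation 17 were higher and 5 lower, against 6045 and 5429 of 16846, with a median of 0.29. TAGLN, an actin-binding protein of smooth muscle, rose by 1.02, and S100A4 averaged 35759 ± 4790 with pladienolide B and 18100 ± 2260 with DMSO (log2 fold change 0.98, limma adjusted p = 1.52e-06). The fibrillar collagen genes COL1A1 and COL5A2 fell by 1.10 and 0.96. With indisulam 4 were higher and 4 lower, against 14.5% and 12.4% of all genes tested, with a median of 0.12. TAGLN rose by 0.52 and TPM2, a tropomyosin, by 0.42, while COL1A1 averaged 294 ± 54.2 with indisulam and 459 ± 60.7 with DMSO (log2 fold change -0.65, limma adjusted p = 0.00997) and ACTA2 fell by 0.80.

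Inducers of EMT numbered 24, of which 23 were tested, mostly genes of the TGF-beta, WNT and NOTCH pathways with the cytokine IL6, its signal transducer STAT3 and the hypoxia factor HIF1A. With pladienolide B 5 were higher and 11 lower, against 34.3% and 35.5% of all genes tested, with a median of -0.29. At the same total per library 3 were higher and 18 lower, against 2733 and 9086 of 16846 genes tested. IL6 averaged 1614 ± 209 with pladienolide B and 405 ± 70.4 with DMSO, and SMAD7, the inhibitory SMAD, rose by 1.11. SMAD3, which carries the TGF-beta signal to the nucleus, averaged 452 ± 12.8 with pladienolide B and 2712 ± 192 with DMSO (log2 fold change -2.58, limma adjusted p = 3.62e-11), and NOTCH1 fell by 2.20. With indisulam 8 were higher and 1 lower, against 14.5% and 12.4% of all genes tested, with a median of 0.20. At the same total per library 5 were higher and 2 lower, against 1714 and 2544 of 16846 genes tested. With TMM scaling 6 were higher and 2 lower, against 1832 and 2441 of 16846. SMAD4, the shared partner of the receptor-activated SMADs, averaged 2753 ± 190 with indisulam and 1672 ± 32.1 with DMSO (log2 fold change 0.72, limma adjusted p = 2.59e-05). TGFB2 rose by 0.65, and TGFB1 fell by 0.47.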

How the data were processed

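RNA was measured in 9 libraries of MDA-MB-231 cells, 3 per group. The authors' deposited table holds signal values, that is reads scaled by DESeq2 size factors, per the labels and the table's name. STAR 2.7.5a, hg38, DESeq2, SAMtools, Picard and FastQC are credited to the submitters' processing notes. The counter and its use of strand were not given in sources used here. The values came out as whole multiples of 1 read (within 0.01), so reads were recovered, 59312100 to 83910831 per library. The members and lists were chosen with earlier results of these data known. Of 200 list memberships, 191 matched a feature.

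Differences were tested with limma 3.58.1 in R 4.3.3 on log2(value + 1), a scale that understates changes of low genes, with all 9 libraries in 1 fit, a mean trend and Benjamini-Hochberg adjustment at 0.05 over 16846 genes with a mean of at least 10. Two-sided p-values are given. The fit was also run on simulated counts with equal scaled totals and independent libraries. That run does not bear on the scaling or on deviations shared between libraries of the same number. Fits on the recovered reads (edgeR 4.0.16, DESeq2 1.42.0), other scalings, pseudocounts, filters, a replicate block and leaving out each library made 21 alternatives. Same-numbered libraries deviated together: 9 of 9 pairs between groups correlated above 0.1 (0.105 to 0.376 over 12332 genes), against 1 of 18 differently numbered pairs. The pairing comes from this check, since the labels do not say what a number marks. Named genes are the 9 members, up to 2 called genes per list, direction and drug with the largest fold change, the 2 genes nearest in pattern and antisense partners. CDH1 was named after its values were seen. Exon counts and UTRs are from GENCODE 29, promoters and miRNAs from RefSeq (GRCh38.p14). Values of some genes of the fixed lists are not reported here.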

Additional observations from a re-analysis of the deposited data

How the results depend on the processing

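For the 7 members, 134 of 147 combinations of member and alternative kept direction and call in each of the 3 comparisons. Members called with indisulam against DMSO numbered 1, but 0 with TMM scaling, 0 with edgeR, 0 with no trend, 3 with the replicate block, 1 at the same total per library (VIM in place of SNAI2) and 0 to 1 when single libraries were left out (0 without replicate 1 or 3 of indisulam or of DMSO). The share of all genes called was then 25.4% with TMM scaling, 26.5% with edgeR, 21.4% with no trend and 37.3% with the block, against 26.9%, and 18.5% to 31.9% when single libraries were left out. With pladienolide B against DMSO members called numbered 5, but 3 at the same total per library, with ZEB2 (lower) among them, and 4 to 6 when single libraries were left out. Members called also numbered 5 under quantile normalisation, where SNAI1 and ZEB2 gained a call, FN1 and CDH2 lost theirs and VIM was called lower. With pladienolide B against indisulam they numbered 5, but 3 with no trend and 4 to 6 when single libraries were left out. They numbered 4 at the same total per library, with ZEB2 among them, and 4 under quantile normalisation, with SNAI1 among them. At the same total per library, the log2 fold change of ZEB1 was -0.015, of ZEB2 -0.396 and of VIM -0.004 against DMSO, and that of ZEB1 was -0.084 against indisulam, all with pladienolide B. Under quantile normalisation that of VIM was -0.238 and of CAV1 -0.091 against DMSO, and that of VIM was -0.139 and of FN1 -0.047 against indisulam, again with pladienolide B. Members without a call also changed sign: ZEB2 against DMSO was -0.002 with TMM scaling and -0.005 with edgeR, and 0.167 against indisulam under quantile normalisation, all with pladienolide B. For SNAI1 with indisulam against DMSO, leaving out single libraries gave -0.134 to 0.275, with the negative values when DMSO replicate 3 (-0.125) or indisulam replicate 3 (-0.134) was left out. With pladienolide B the median over all genes was -0.48 at the same total and 0.05 under quantile normalisation against DMSO, in place of -0.01, and -0.40 and 0.08 against indisulam, in place of 0.01. The causes were not tested. The replicate block changed the calls of FN1 and VIM with indisulam and of no other member. All genes called higher with indisulam numbered 2437, but 1620 without DMSO replicate 2 and 1565 without indisulam replicate 3. Depth limits SNAI1 most, at 34 to 71 reads per library, and TWIST1 and TWIST2, listed at 0.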
